A study of Mus musculus with 7 samples.

Results

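The adrenomedullin system was followed in cultured murine lung endothelial cells (MLEC) through 10 genes, taken as the rows of the expression table whose gene name equalled one of the symbols *Adm*, *Adm2*, *Calcrl*, *Ramp1*, *Ramp2*, *Ramp3*, *Gpr182*, *Cxcr7*, *Pam* and *Mme*. All 10 were found among the 38300 genes with a value in each library. The cells came from lungs of C57BL/6 mice of unstated age and were taken through PECAM-1 and then ICAM-2 beads before culture, with the lungs of several mice pooled for each isolation. Poly(A) RNA was sequenced from 4 wild type (WT) libraries, named a, c, e and f, and from 3 AM EC-KO libraries, named b, d and g. In AM EC-KO mice, a Cre recombinase driven by the VE-cadherin (*Cdh5*) promoter acts on an *Adm* gene flanked by LoxP sites, so that deletion is limited to cells in which this promoter has been active. No treatment is given in the labels for either group. The study describes its sequencing values as means over at least 3 MLEC preparations, and no source says which library came from which preparation, so p-values measure the spread between these libraries.

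Adrenomedullin (AM) is a vasodilator peptide of the calcitonin family that endothelial cells both secrete and respond to. Its precursor is cut by proprotein convertases and its glycine-extended intermediate is amidated by peptidylglycine alpha-amidating monooxygenase, the product of *Pam*, to give the active peptide. The receptor is built from the calcitonin receptor-like receptor (*Calcrl*), a G protein-coupled receptor that needs a receptor activity modifying protein (RAMP) to reach the membrane. RAMP2 or RAMP3 gives a receptor for AM, and RAMP1 gives the receptor for calcitonin gene-related peptide (CGRP). CXCR7, named *Ackr3* in current annotation, is an atypical receptor that takes up the chemokine CXCL12 and also AM, and neprilysin, the product of *Mme*, degrades the peptide outside the cell.

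*Adm* is found on the plus strand of chromosome 7, at bases 110627661 to 110629820 of GRCm38, with 4 exons and a transcript of 1390 bases. It lies within the antisense gene *Gm28863*, with no exonic overlap. Its 184 codons encode AM and also PAMP, a second amidated peptide of the same precursor. The stretches below carry the sites at which both peptides meet the product of *Pam* and are shown because *Adm* and *Pam* are linked there. They are coding sequence in GENCODE M21, and the capitals mark the codon of the glycine that gives up its nitrogen as the amide, ahead of a pair of basic residues. The PAMP site (GKR, glycine at codon 42) lies in exon 3 at chr7:110628532-110628561, and the AM site (GRR, glycine at codon 145) lies in exon 4 at chr7:110629028-110629057.
PAMP site: aagtgggcgctaagtcgtGGGaagagggaa
AM site: atcagccctcaaggctatGGCcgccggcgc

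The 250 bases before the start sites of *Adm* and *Cxcr7* are shown because these genes had the widest ranges over libraries of the members above 1 FPKM in WT. The sequences are those of RefSeq for GRCm38.p6, in which 8 of the 10 members were matched with 11 start sites, and *Ramp2* and *Gpr182* were not among them. Capitals mark GCGTG, one form of the core of a hypoxia response element, and TATAA, the core of a TATA box, both searched on both strands. For *Adm* (chr7:110627407-110627656, plus strand) GCGTG was found on the minus strand from 90 to 86 and from 54 to 50 bases before the start, so that it reads CACGC here, and TATAA was found on both strands between bases 28 and 23, where the matches overlap. For *Cxcr7* (chr1:90203730-90203979, plus strand) GCGTG was found from 120 to 116 and TATAA from 8 to 4 bases before the start. The other form of the core, ACGTG, was in neither window.
Adm: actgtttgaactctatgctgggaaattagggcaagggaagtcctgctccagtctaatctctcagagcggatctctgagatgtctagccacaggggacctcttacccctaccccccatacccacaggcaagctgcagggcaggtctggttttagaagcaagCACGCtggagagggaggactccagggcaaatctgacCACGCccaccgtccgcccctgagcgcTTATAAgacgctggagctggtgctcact
Cxcr7: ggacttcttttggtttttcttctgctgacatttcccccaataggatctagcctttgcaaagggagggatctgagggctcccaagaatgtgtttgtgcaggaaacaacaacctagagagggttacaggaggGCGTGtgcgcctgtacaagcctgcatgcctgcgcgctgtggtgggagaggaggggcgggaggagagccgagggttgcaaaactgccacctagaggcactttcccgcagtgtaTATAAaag
Over 32851 promoters of the same length, 28.2% held GCGTG, 16.6% ACGTG and 22.8% TATAA, so these matches are frequent and describe the windows only. GCGTG was also found in windows of *Ramp3*, *Pam* and *Mme*, and none of these motifs was found before *Calcrl*, *Adm2* or *Ramp1*.

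The values are fragments per kilobase of transcript scaled to the mapped reads (FPKM), a level per length, computed by the authors for each library. The depth, estimated from the steps between low values, was 6.86 to 8.20 M reads per library, but 65.3 to 70.0% of these values came to within 0.1 of a whole read, where 20% would by chance, so reads were not recovered and no count test was run. WT e stood apart: its median correlation with the other libraries was 0.913, against 0.938 to 0.946 for the rest, and the fibroblast gene *Dcn* was at 227 FPKM in it and at 2.83 to 8.47 FPKM elsewhere. The endothelial identity given by the labels was checked with 12 markers, which summed to 3332 to 4057 FPKM per library with *Emcn* the most abundant in each library but WT e, where it was *Egfl7*, although von Willebrand factor (*Vwf*) was listed at 0 in 5 libraries. A listed 0 can be a failed estimate. Each library had 190 to 247 genes at 0 whose median over their libraries above 0 was at least 5 FPKM. These genes were above 0 in at least 3 libraries. *Gnas*, which encodes the stimulatory G protein that AM receptors use, was listed at 0 in all 7 libraries.

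*Adm* was the member that differed most between genotypes. It was at 48.2, 70.1, 76.1 and 43.8 FPKM (WT a, c, e, f) against 9.31, 17.2 and 0.750 FPKM (AM EC-KO b, d, g). Each AM EC-KO library was below each WT library, and relative to their mean the AM EC-KO libraries differed more among themselves, with a coefficient of variation of 90.4% against 26.7% in WT. The means were 59.6 ± 15.9 FPKM (SD, n = 4) and 9.07 ± 8.21 FPKM (SD, n = 3), so that the AM EC-KO mean was 15.2% of the WT mean. On the scale of log2(FPKM + 1), on which all fold changes here are given and which understates the change of low genes, the difference was -3.10 (SE 0.75, 95% interval -4.88 to -1.31). In limma, fitted over 15604 genes, this gave an unadjusted p = 0.0046 and an adjusted p = 0.954 after Benjamini-Hochberg correction, so *Adm* did not pass a false discovery rate (FDR) of 0.1. Exact permutation of the genotypes over all 35 divisions of the libraries gave a two-sided p = 0.057, the smallest that 4 against 3 libraries allow.

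The *Adm* level that remained was not the same in the AM EC-KO libraries. It was 28.8% of the WT mean in d, 15.6% in b and 1.26% in g. The lowest WT library, f, was 2.55 times the value in d, 4.70 times that in b and 58.5 times that in g. As estimated reads, these levels are about 158, 90.2 and 6.07 in d, b and g, against 407 to 688 in WT. Only g thus rests on a handful of reads. Without g, the fold change was -2.11 and the AM EC-KO mean was 22.2% of the WT mean, and without d they were -3.79 and 8.45%. Which bases lie between the LoxP sites is not given in the sources used here, so whether this row counts deleted bases only is not known. In bulk RNA, fewer cells that express a gene and less RNA per cell cannot be told apart.

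Markers of other cell types were read beside the remaining *Adm*. Macrophage markers, of which 7 of 8 were in the table, summed to 178 FPKM in d, to 69.8 FPKM in b and to 43.6 FPKM in g, and to 46.8 to 104 FPKM in WT. Most of the sum in d was lysozyme (*Lyz2*), at 139 FPKM, while the leukocyte antigen *Ptprc* was listed at 0 in each library. Fibroblast markers (8 of 8 in the table) summed to 363, 332 and 307 FPKM in d, b and g and to 259 to 563 FPKM in WT, with lumican (*Lum*) listed at 0 in each library but WT e. Smooth muscle and pericyte markers (8 of 8) summed to 662, 500 and 675 FPKM in d, b and g and to 329 to 628 FPKM in WT. Lung epithelium markers (7 of 7) summed to 13.95 to 15.8 FPKM in AM EC-KO and 14.3 to 25.2 FPKM in WT. *Krt18* made up most of each sum but that of WT e, where it was 11.7 of 25.2 FPKM. The surfactant gene *Sftpc* was at 10.3 FPKM in WT e and listed at 0 in each other library. Lymphatic endothelium markers (5 of 5) summed to 202, 196 and 151 FPKM in d, b and g and to 215 to 292 FPKM in WT. *Lyve1* differed most in FPKM, at 40.1, 28.2 and 45.2 FPKM in d, b and g and at 36.8 to 157 FPKM in WT. *Pdpn* was at 50.7 to 92.6 FPKM in AM EC-KO and 24.5 to 99.7 FPKM in WT. Of the 5 markers, 1 was lower in AM EC-KO at an unadjusted limma p under 0.05, as were 1.42% of all genes. At this threshold 1 of 11 vascular endothelium markers was also lower. Of 8 smooth muscle and pericyte markers, 1 was higher, as were 1.65% of all genes. The lymphatic sums had no overlap between the genotypes, although 0 of the 5 lymphatic markers separated them on its own. Such a separation was seen for 2.22% of all genes tested singly. Of 7 fibroblast markers tested, 1 was separated with AM EC-KO above WT, as were 2.91% of all genes. The sums of the macrophage, fibroblast and lymphatic markers thus had the order of *Adm* within AM EC-KO, and those of smooth muscle and epithelium did not. Neither did those of vascular endothelium, at 3518, 3332 and 3837 FPKM in d, b and g. With 3 libraries few orders are possible, so a shared order says little. Single genes did not all share this order, and *Lyve1* did not. *Thy1*, the most abundant fibroblast marker in these libraries, was at 261, 291 and 259 FPKM in d, b and g. *Col1a2* was at 49.5 FPKM in d and listed at 0 in b and g, so the order of the fibroblast sums leans on it. *Cdh5*, whose promoter drives the Cre, was at 295, 259 and 281 FPKM in d, b and g and at 287 to 394 FPKM in WT. The part of these cells in the result was not tested.

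**Figure D1:**
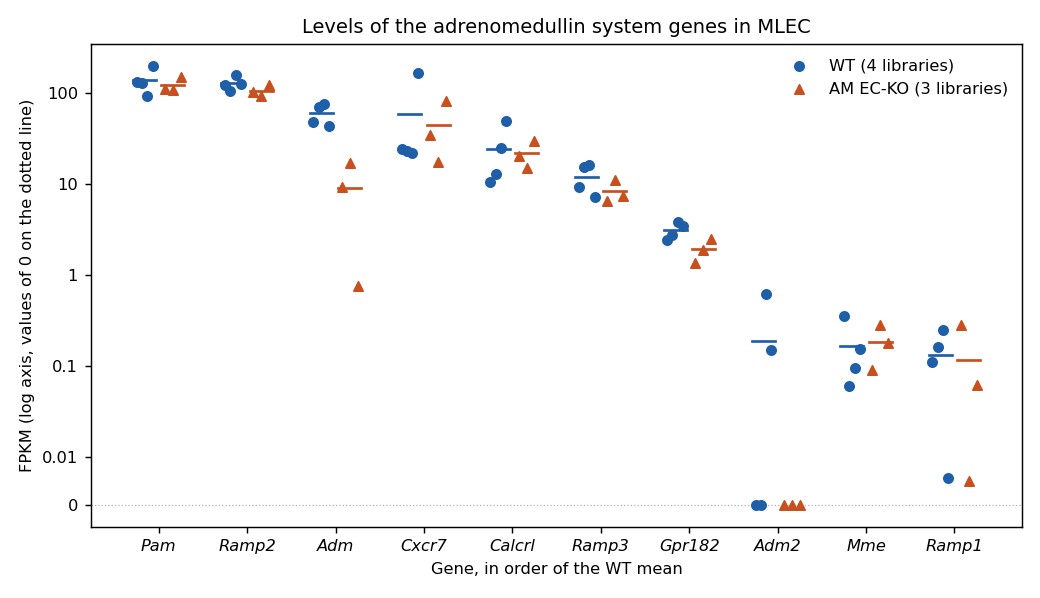
FPKM of each of the 10 genes on a log axis, with genes in order of the WT mean. Circles are WT libraries, triangles are AM EC-KO libraries, lines are group means and values of 0 lie on the dotted line. The genotypes separate for *Adm* only, and the levels run from *Pam* at a WT mean of 137 FPKM to *Ramp1* at 0.133 FPKM.

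Of the 10 members, 9 had a mean of at least 0.1 FPKM and a value above 0 in at least 3 libraries and were tested, and *Adm2* was not. None of the 9 passed FDR 0.1 in limma, a threshold that 0.0641% of all genes tested passed (10 genes). At an unadjusted p under 0.05, 2 members were lower in AM EC-KO, *Adm* and *Gpr182*, against 1.42% of all genes, and 0 were higher, against 1.65% of all genes. A complete separation with AM EC-KO below WT was seen for 1 member, *Adm*, and for 2.22% of all genes, and 0 members were separated in the other direction, against 2.91%. The fold change was below 0 in 7 members and above 0 in 2, with a median of -0.12, where the median of all genes was -0.0085. Of all 15604 genes tested, 8079 lay below 0 and 7525 above. Vascular endothelium markers lay below 0 in 10 of 11 genes tested, with a median of -0.19, and the medians of fibroblast and of smooth muscle and pericyte markers were 0.25 and 0.22. The part of these shifts in the members' values was not tested.

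Among the ligands, *Adm2* (chromosome 15, 89322720 to 89324731), which encodes adrenomedullin 2 or intermedin, was close to absent. It was listed at 0 in WT a and c and in b, d and g, and at 0.614 and 0.1498 FPKM in WT e and f, which are about 3.97 and 0.992 reads. This depth does not allow a comparison of the genotypes. *Adm* was thus the only one of both ligand genes with more than a few reads.

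*Calcrl* (chromosome 2, 84330626 to 84425411, minus strand), the receptor itself, varied more within a genotype than between them. It was at 10.5, 12.9, 24.7 and 48.8 FPKM (WT a, c, e, f) against 20.3, 15.1 and 29.7 FPKM (AM EC-KO b, d, g). The AM EC-KO values all lie within the WT range. The means were 24.2 ± 17.5 FPKM (SD, n = 4) and 21.7 ± 7.38 FPKM (SD, n = 3), and the fold change was 0.04 (SE 0.52, 95% interval -1.19 to 1.28, limma adjusted p = 0.991). This interval leaves room for a change of either sign that is larger than a doubling. The interval that the table gives for this gene covers 342 bases, the start of the annotated gene only, so its level against other genes is less certain than its comparison between libraries.

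*Ramp2* (chromosome 11, 101246028 to 101259546), which turns *Calcrl* into the main AM receptor of endothelium, was abundant and even. It was at 123, 104, 158 and 126 FPKM (WT a, c, e, f) against 101.4, 91.5 and 123 FPKM (AM EC-KO b, d, g). Only g reached into the WT range, above WT a and c. The means were 127.6 ± 22.3 FPKM (SD, n = 4) and 105 ± 16.1 FPKM (SD, n = 3), with a fold change of -0.27 (SE 0.16, 95% interval -0.65 to 0.11, limma adjusted p = 0.954). *Ramp2* shares 1103 exonic bases with *Vps25* on the same strand, itself at 39.8 to 59.8 FPKM, so reads could be divided between them in different ways.

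*Ramp3* (chromosome 11, 6658521 to 6677475), the other partner that gives an AM receptor, was about an order of magnitude lower. It was at 9.19, 15.5, 16.2 and 7.15 FPKM (WT a, c, e, f) against 6.57, 11.1 and 7.46 FPKM (AM EC-KO b, d, g). High and low libraries occur in both genotypes, and the fold change was -0.43 (SE 0.32, 95% interval -1.18 to 0.32, limma adjusted p = 0.954). *Ramp1* (chromosome 1, 91179822 to 91225196), the partner for CGRP, was at 0.00597 to 0.251 FPKM in WT and at 0.00542 to 0.281 FPKM in AM EC-KO. These levels are near the limit of detection, and its fold change was -0.02 (SE 0.12).

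The make-up of the receptor transcripts was then set out within each library. *Ramp2* made up 86.9 to 94.6% of the summed *Ramp1*, *Ramp2* and *Ramp3* FPKM, *Ramp3* 5.37 to 12.9% and *Ramp1* 0.00448 to 0.259%. The share of *Ramp2* was 91.3 ± 3.34% in WT (SD, n = 4) and 92.4 ± 2.78% in AM EC-KO (SD, n = 3), and the groups overlap. The ratio of *Ramp2* plus *Ramp3* to *Calcrl* was 12.5, 9.28, 7.03 and 2.73 (WT a, c, e, f) against 5.31, 6.78 and 4.39 (AM EC-KO b, d, g). It was thus above 1 in every library and followed *Calcrl*, its most variable term. The size of the ratio is less certain, because the interval listed for *Calcrl* covers 342 bases only. Exact two-sided permutation tests of the 3 shares and of the log2 ratio gave p = 0.571 to 0.857, each with an adjusted p = 0.857 over the 4 comparisons, and the difference of the log2 ratio was -0.35.

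**Figure D2:**
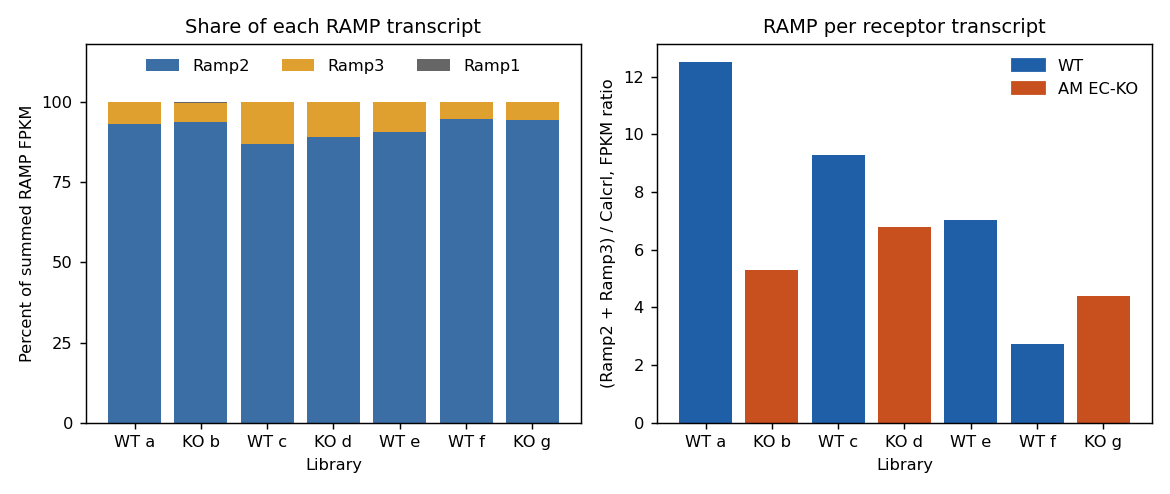
Left, percent of the summed RAMP FPKM contributed by *Ramp2*, *Ramp3* and *Ramp1* in each library. Right, FPKM ratio of *Ramp2* plus *Ramp3* to *Calcrl*, in WT (blue) and AM EC-KO (orange) libraries. *Ramp2* is at least 86.9% of the sum in each library, and the ratio spans 2.73 to 12.5 within WT alone.

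*Gpr182* (chromosome 10, 127747276 to 127751732, minus strand) encodes an orphan-type receptor once proposed to bind AM and now known as an atypical chemokine receptor of endothelium. It was at 2.44, 2.78, 3.83 and 3.43 FPKM (WT a, c, e, f) against 1.35, 1.90 and 2.50 FPKM (AM EC-KO b, d, g). AM EC-KO b and d lay below each WT library, and g lay just above WT a. The means were 3.12 ± 0.625 FPKM (SD, n = 4) and 1.92 ± 0.575 FPKM (SD, n = 3), with a fold change of -0.50 (SE 0.20, 95% interval -0.99 to -0.02). The limma p was 0.044 before and 0.954 after adjustment, and an exact two-sided permutation test gave p = 0.114. The fold change was -0.36 without b and -0.42 without WT e, with unadjusted limma p-values of 0.159 and 0.080. The gene shares 74 exonic bases with *Zbtb39* on the other strand, at 2.23 to 4.68 FPKM, and the library kit did not keep strand. The interval listed for *Gpr182* covers 133 bases only, so its level against other genes is less certain than its comparison between libraries.

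*Cxcr7* (chromosome 1, 90203980 to 90216751) was the most variable of the abundant members. It was at 24.4, 22.9, 21.98 and 166 FPKM (WT a, c, e, f) against 34.2, 17.6 and 82.1 FPKM (AM EC-KO b, d, g). Its high values were in WT f and AM EC-KO g, so that both genotypes hold high and low libraries. The fold change was -0.04 (SE 0.83, 95% interval -2.02 to 1.93, limma adjusted p = 0.994), and without WT f it was 0.65 (SE 0.52, limma adjusted p = 0.894), and it was also above 0 without d (0.47) and without b (0.0074), so its sign is not settled by these libraries. Its coefficient of variation in WT was 121%, at percentile 97.8 of the 12408 genes with a WT mean of at least 1 FPKM, whose median was 19.1%. On the same measure *Calcrl* was at 72.2% (percentile 91.9), *Ramp3* at 37.6% (77.4), *Pam* at 32.1% (72.7), *Adm* at 26.7% (65.7), *Gpr182* at 20.04% (52.5) and *Ramp2* at 17.5% (45.3).

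Of the enzymes, *Pam* (chromosome 1, 97795114 to 98095646, minus strand) was the most abundant member. It was at 131, 128.2, 92.2 and 198 FPKM (WT a, c, e, f) against 112, 108 and 149 FPKM (AM EC-KO b, d, g). The AM EC-KO values all lie within the WT range, with means of 137 ± 44.0 FPKM (SD, n = 4) and 123 ± 22.8 FPKM (SD, n = 3). The fold change was -0.12 (SE 0.25, 95% interval -0.72 to 0.48, limma adjusted p = 0.965). An intron of *Pam* holds the pseudogene *Gm3531*, listed at 366 to 452 FPKM, with no exonic overlap. *Mme* (chromosome 3, 63241537 to 63386030) was at 0.0608 to 0.356 FPKM in WT and at 0.0897 to 0.284 FPKM in AM EC-KO, about 1.76 to 9.68 reads a library. The fold change of *Mme* was 0.02 (SE 0.12), and at this depth a difference was not detectable.

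**Figure D3:**
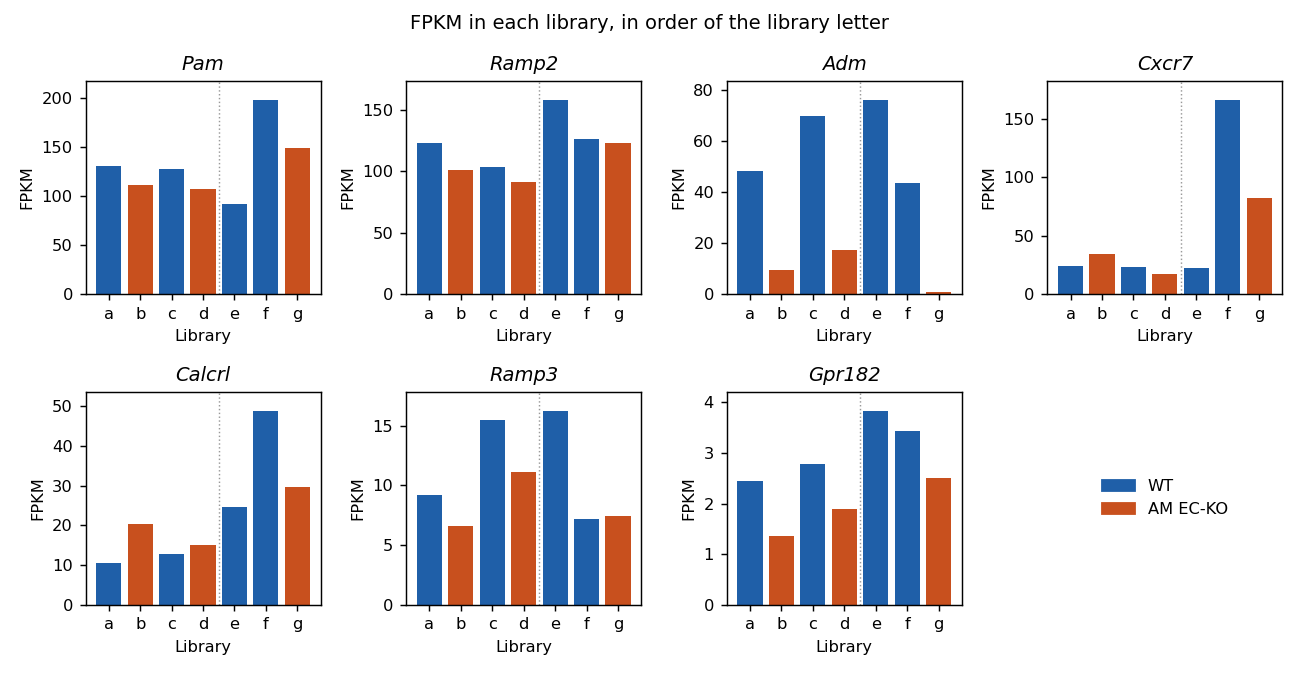
FPKM of the 7 genes with a WT mean of at least 1 FPKM, one bar per library in order of the library letter, WT in blue and AM EC-KO in orange, with a dotted line between letters d and e. *Adm* is low in b, d and g, whereas *Calcrl* and *Ramp2* are higher in e, f and g than in a to d.

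By WT mean, the order of the levels was *Pam* (137 FPKM), *Ramp2* (127.6), *Adm* (59.6), *Cxcr7* (58.8), *Calcrl* (24.2), *Ramp3* (12.01), *Gpr182* (3.12), *Adm2* (0.191), *Mme* (0.167) and *Ramp1* (0.133). Each gene was compared with the next on the log2(FPKM + 1) scale by an exact two-sided sign-flip permutation test within libraries, over 7 libraries, or over the 4 WT libraries for pairs with *Adm*. The 9 tests gave no adjusted p under 0.05. The clearest steps were from *Ramp3* to *Gpr182* (mean difference 1.63) and from *Gpr182* to *Adm2* (1.69), each in 7 of 7 libraries with exact p = 0.0156, the smallest possible, and adjusted p = 0.070. *Cxcr7* was above *Calcrl* in 6 of 7 libraries (0.84, exact p = 0.031, adjusted p = 0.094), as was *Calcrl* above *Ramp3* (0.98, exact p = 0.047, adjusted p = 0.105). Steps with *Gpr182* or *Calcrl* are less certain, because the intervals listed for these genes cover only 133 and 342 bases. *Ramp2* was above *Adm* in 4 of 4 WT libraries, with ranges that do not overlap, but 4 libraries cannot give an exact p below 0.125. The pairs *Pam* and *Ramp2*, *Adm* and *Cxcr7*, *Adm2* and *Mme*, and *Mme* and *Ramp1* did not differ beyond the spread, with exact p = 0.422 to 0.625. *Adm2* was above *Mme* in 1 of 7 libraries only (mean difference -0.099), so their order by WT mean was not that within libraries.

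The libraries were also compared by the order of their letters. In *Calcrl*, libraries a to d were at 10.5 to 20.3 FPKM and libraries e to g at 24.7 to 48.8 FPKM, and in *Ramp2* they were at 91.5 to 122.7 FPKM and 122.9 to 158 FPKM. Only these 2 members had all of e to g above all of a to d, as did 11.6% of all genes. What the letters stand for is not given in the sources used here. AM EC-KO was below WT within both sets of letters for 3 members, *Adm*, *Ramp2* and *Gpr182*, and for 5.85% of all genes. For *Calcrl*, both AM EC-KO libraries of the first set (20.3 and 15.1 FPKM) were above both WT libraries (10.5 and 12.9 FPKM), and the only AM EC-KO library of the second set (29.7 FPKM) was between its WT libraries.

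With a term for libraries e to g in the limma fit, the fold change of *Adm* was -3.30 (SE 0.67), that of *Gpr182* -0.44 (SE 0.15), that of *Ramp2* -0.21 (SE 0.11) and that of *Calcrl* 0.24 (SE 0.30), each with an adjusted p = 0.937. Within libraries a to d alone, *Adm* was at -2.11 (SE 0.35), *Gpr182* at -0.47 (SE 0.18), *Ramp2* at -0.23 (SE 0.11) and *Calcrl* at 0.55 (SE 0.19), each with an adjusted p = 0.942 in limma. *Adm*, *Gpr182*, *Ramp2* and *Calcrl* thus kept their sign in both fits, as did *Ramp3*, *Pam* and *Ramp1*. *Cxcr7* changed sign in both (to 0.20 and 0.052) and *Mme* within libraries a to d (to -0.020). No member passed FDR 0.1 in limma in either fit.

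**Figure D4:**
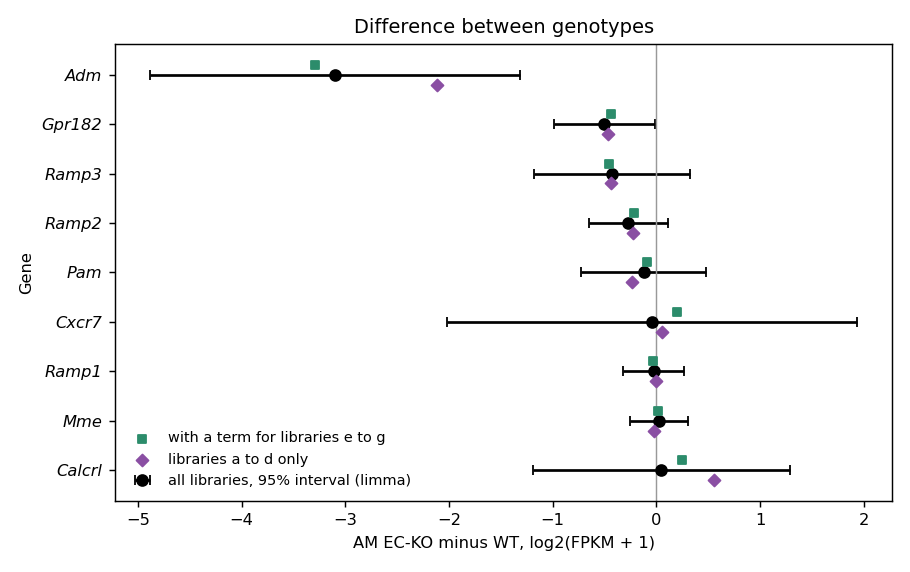
Difference between AM EC-KO and WT on the log2(FPKM + 1) scale for the 9 genes tested, with the limma 95% interval (circles and bars), with a term for libraries e to g (squares) and within libraries a to d (diamonds). *Adm*, at -3.10, and *Gpr182*, at -0.50, are the genes whose interval leaves out 0, without correction for the number of genes tested.

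The genes around these members in the pathway were read from 6 further lists with 41 genes, all in the table, of which 33 were tested. None of the 33 passed FDR 0.1 in limma, 1 had an unadjusted p under 0.05 and was higher, 0 were lower, and 12 had a fold change above 0 and 21 below, with a median of -0.11. The counts by p are to be read against the 1.65% and 1.42% of all genes given above. Those by sign are to be read against 7525 genes above 0 and 8079 below among all 15604 tested.

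The other ligands and receptors of the calcitonin family were at or near 0. Of the 5 genes of this list, which also holds *Crcp*, 2 were tested and both had a fold change below 0. *Crcp*, a component that couples CGRP receptors to signalling, was at 26.4 to 34.3 FPKM in WT and at 28.0 to 33.9 FPKM in AM EC-KO, with a fold change of -0.0026 (SE 0.11). *Calcb*, which encodes a CGRP, was at 0 to 0.344 FPKM over all libraries, and the calcitonin receptor *Calcr* was listed at 0 in each.

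Of 11 genes of precursor processing, 8 were tested, 3 above and 5 below 0, with 0 at an unadjusted p under 0.05. *Cpe*, a carboxypeptidase that trims basic residues from peptide ends, was the most abundant, at 276, 364, 617 and 592 FPKM (WT a, c, e, f) against 271, 303 and 424 FPKM (AM EC-KO b, d, g). Its groups overlap, with a fold change of -0.42 (SE 0.32, limma adjusted p = 0.954). The convertase *Furin* was at 39.5 ± 11.9 FPKM in WT (SD, n = 4) and 32.8 ± 1.80 FPKM in AM EC-KO (SD, n = 3). *Pcsk6*, another convertase, was at 43.4 ± 15.0 FPKM in WT (SD, n = 4) and 49.6 ± 2.10 FPKM in AM EC-KO (SD, n = 3). In both convertases the AM EC-KO libraries lay within the WT range.

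Of 7 genes of peptide degradation and binding, 6 were tested, 2 above and 4 below 0, with 0 at an unadjusted p under 0.05. Endothelin-converting enzyme (*Ece1*) was at 153 ± 34.96 FPKM in WT (SD, n = 4) and 132 ± 22.6 FPKM in AM EC-KO (SD, n = 3). Insulin-degrading enzyme (*Ide*) was at 22.2 ± 5.72 FPKM and 19.7 ± 2.89 FPKM (SD, n = 4 and 3).

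Of 7 kinases and arrestins that desensitise G protein-coupled receptors, all were tested, 4 above and 3 below 0. *Grk4*, one of these kinases, was the 1 gene of the 41 at an unadjusted p under 0.05. It was at 2.93, 0.588, 2.18 and 1.27 FPKM (WT a, c, e, f) against 3.18, 3.33 and 4.44 FPKM (AM EC-KO b, d, g). Each AM EC-KO library was above each WT library, as for 2.91% of all genes. Its fold change was 0.83 (SE 0.33), with a limma p of 0.038 before and 0.954 after adjustment and an exact permutation p = 0.057. *Adrbk2*, a related kinase, was at 0.186 to 1.29 FPKM over all libraries. Beta-arrestin 1 (*Arrb1*) was listed at 0 in 4 libraries and at 20.4, 19.4 and 24.3 FPKM in WT a and AM EC-KO d and g. It is counted among the 4 above 0, with a fold change of 1.90 (SE 1.55) into which the listed zeros enter. The authors' FPKM by genotype for *Arrb1* had the opposite order, with AM EC-KO at 23.3 and WT at 33.4. The direction of its difference is therefore not settled by these values.

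*Cxcl12*, the chemokine ligand of CXCR7, was at 144 ± 55.3 FPKM in WT (SD, n = 4) and 164 ± 40.8 FPKM in AM EC-KO (SD, n = 3), and *Cxcl11*, the other ligand, was listed at 0 in each library. *Cxcr4*, the other receptor of CXCL12, was at 5.13, 11.98, 32.6 and 10.3 FPKM (WT a, c, e, f) against 4.396, 7.67 and 6.14 FPKM (AM EC-KO b, d, g). WT e was the high library, the groups overlap, and the fold change was -0.93 (SE 0.54, limma adjusted p = 0.954).

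Hypoxia-inducible factors (HIF) induce *Adm* in many cell types. Of 8 HIF genes and their regulators, all were tested, 2 above and 6 below 0, with 0 at an unadjusted p under 0.05. *Hif1a* was at 35.4, 39.6, 62.4 and 35.3 FPKM (WT a, c, e, f) against 33.4, 34.9 and 31.7 FPKM (AM EC-KO b, d, g). The groups do not overlap, as for 2.22% of all genes in this direction, although WT f and AM EC-KO d nearly meet, and the fold change was -0.32 (SE 0.20, limma adjusted p = 0.954). *Epas1*, which encodes HIF-2 alpha, was at 22.1 ± 9.55 FPKM in WT (SD, n = 4) and 27.4 ± 7.94 FPKM in AM EC-KO (SD, n = 3). *Egln2*, a prolyl hydroxylase that marks HIF for degradation, was at 24.3 to 30.3 FPKM in 6 libraries and listed at 0 in g. Its fold change was -1.67 (SE 1.12, limma adjusted p = 0.954) with g and -0.098 without it.

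The genes whose pattern over the 7 libraries was most like that of a member were sought among 12466 genes above 0 in every library, by Pearson's r of log2(FPKM + 1), as a description without a test. For *Adm* they were *Mettl1* (r = 0.961), *Dctn4* (0.954) and *Psg22* (0.943). *Mettl1* was at 13.1 to 14.0 FPKM in WT against 12.1, 12.9 and 10.3 FPKM in b, d and g, so within AM EC-KO it had the order of *Adm*, over a narrower range. *Psg22* was at 18.2 to 38.3 FPKM in WT against 15.9, 15.5 and 5.28 FPKM in b, d and g. For *Calcrl* they were *Ppat* (0.983), *Mospd2* (0.982) and *Sec22c* (0.980), and for *Ramp2* they were *Trrap* (0.991), *Fam73a* (0.991) and *Shroom2* (0.980). An r of at least 0.95 was reached by 2 genes for *Adm*, 29 for *Calcrl* and 39 for *Ramp2*. The points share libraries, depth and genotype, and each r rests on 7 points.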

How the data were processed

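RNA of cultured MLEC was sequenced as single reads, and the libraries were grouped by the genotype in their labels. The authors trimmed reads with Cutadapt, mapped them to GRCm38 with TopHat2 2.0.6 against Ensembl 71, and deposited gene FPKM by library together with an FPKM by genotype; the processing notes name Cufflinks and Cuffdiff. The deposited table also holds the authors' own fold changes (log2), p-values and q-values, which were not used. Of 38472 rows, 172 have no library values.

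Here log2(FPKM + 1) was tested with limma 3.58.1 (trend) in R 4.3.3 over 15604 genes, those averaging 0.1 FPKM or more with at least 3 libraries above 0. Python 3.11.15, numpy 2.4.6, pandas 2.3.3 and matplotlib 3.10.9 served for exact tests and figures. The code was tested on simulated data. Reads were estimated on transcript length less 200 bases, and they limit genes of low level most. FPKM allow no counting interval. No source pairs the libraries, so no block was fitted.

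The members and lists were chosen with earlier results of these data known. All members are named, with the 3 genes of smallest unadjusted p of each list, of which 1 is not reported here. *Calcr*, *Cxcl11*, *Gnas* and single markers were chosen after their values were seen. The alternatives were other pseudocounts, filters, normalizations (quantile, TPM), variance models, letter sets and each library left out.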

Additional observations from a re-analysis of the deposited data

Results flagged for a closer look

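Of 30 sets of values looked at in the 4 WT libraries, 3 held a library far from the others, by Dixon's criterion for the gap to the nearest value over the whole range. Chance flags about 1 in 20. *Cxcr7* was at 166 FPKM in WT f, with the other WT libraries at 21.98 to 24.4 FPKM. *Arrb1* was at 20.4 FPKM in WT a and listed at 0 in the other WT libraries. The authors' FPKM by genotype for *Arrb1* was 33.4 in WT, above each WT library, so this flag rests on the listed zeros. *Hif1a* was at 62.4 FPKM in WT e, with the other WT libraries at 35.3 to 39.6 FPKM.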

How the results depend on the processing

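No member and no gene of the pathway lists passed FDR 0.1 in limma under any alternative run. *Adm* was lower in AM EC-KO in each of 18 alternatives, from -3.79 to -2.11 (unadjusted p = 0.00063 to 0.0145, adjusted p = 0.487 to 1.00), and *Gpr182* from -0.72 to -0.36 (unadjusted p = 0.024 to 0.159, adjusted p = 0.852 to 1.00). The genes past FDR 0.1 in limma were 10 in all and numbered 18 with a pseudocount of 0.1, 17 with 0.01, 0 within libraries a to d (where fewer libraries enter) and 0 among genes above 0 in every library, an alternative chosen after seeing the data. They numbered 8 to 39 with one library left out, 39 without WT a, 27 without WT e, 22 without WT c and 21 without WT f.

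Some log2 fold changes changed sign, none of them called, and the cause was not tested. All lay between -0.22 and 0.26 except that of *Egln2* (-1.67), which was -0.098 without g, where it is listed at 0. With a term for libraries e to g, *Cxcr7* was at 0.20 and *Crcp* at 0.026. Within libraries a to d, *Cxcr7* was at 0.052, *Mme* at -0.020, *Furin* at 0.017, *Pcsk6* at -0.12, *Ide* at 0.012, *Cxcl12* at -0.026 and *Egln2* at 0.015. With one library left out, *Calcrl* ranged from -0.25 to 0.45, *Ramp1* from -0.080 to 0.047, *Cxcr7* from -0.61 to 0.65, *Pam* from -0.30 to 0.069, *Mme* from -0.036 to 0.098, *Crcp* from -0.080 to 0.054 and *Cxcl12* from -0.023 to 0.46. The difference in RAMP share, AM EC-KO minus WT, ranged from -0.35 to 2.70 percentage points for *Ramp2*, from -2.76 to 0.32 for *Ramp3* and from -0.066 to 0.061 for *Ramp1*. No paired analysis was possible because the labels give the libraries no shared replicate numbers. Depth limits *Adm2*, *Ramp1* and *Mme* most.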
